A study of Mus musculus with 6 samples.

Results

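Transcripts of the nuclear envelope were compared in MA-10 cells, a mouse Leydig tumour cell line, after 48 h with short interfering RNA that targets both MEF2A and MEF2D (3 samples, siRNA MEF2) or with scrambled control RNA (3 samples, siRNA control). No other agent or allele distinguishes the groups in the labels, and both were grown in medium with horse serum before treatment. Leydig cells make the steroid hormones of the testis, and MEF2A and MEF2D are transcription factors. The genes described here are the 42 nucleoporin, lamin and lamin-associated genes, of 22085 genes measured, that were selected by the deposited gene symbol: Nup and Nupl genes, Pom121, Tpr, Ranbp2, Seh1l and Aaas for the pore, and Lmna, Lmnb1, Lmnb2, Emd, Tmpo, Banf1, the Lemd genes, Sun1, Sun2, Syne1 and Syne2 for the lamina and envelope. Each gene is given by its brightest probe set, judged by the mean of all 6 arrays. The annotation deposited with the arrays placed 36 of the 42 in the nuclear pore, lamina or nuclear envelope, and the other 6 (Banf1, Nup153, Nup205, Nup210l, Nup62cl and Pom121l2) carried other terms or none.

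The nuclear pore complex is a ring-shaped channel through both membranes of the nuclear envelope. An outer and an inner ring form its scaffold, membrane proteins anchor it, nucleoporins with phenylalanine-glycine repeats fill the channel, and filaments on the cytoplasmic face and a basket on the nuclear face dock transport complexes. Beneath the inner membrane lies the lamina, a meshwork of A-type and B-type lamins. LEM-domain proteins tie chromatin to it, and SUN proteins and nesprins join it to the cytoskeleton. In dividing cells the pores and the lamina are taken apart and rebuilt at each mitosis.

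The 6 arrays had median log2 signals between 7.82 and 7.89 over all genes. The negative control probe sets were less level. Their medians were 7.28, 7.35 and 7.34 on control replicates 1 to 3 and 7.16, 7.4 and 7.53 on siRNA MEF2 replicates 1 to 3. The part of this background in the differences was not tested. Of 6 Leydig cell markers Cyp11a1, Star, Cyp17a1, Lhcgr and Nr5a1 lay above the median of the negative control probe sets on every array and Hsd3b1 did not. Of the markers of other testis cells, Amh, Wt1 and Fshr of Sertoli cells were not above that median on every array. Nor were Dazl, Prm1 and Tnp1 of germ cells or Ptprc, Adgre1 and Csf1r of macrophages. Pecam1, Kdr and Tek of endothelium and Myh11, Cnn1 and Des of peritubular and smooth muscle cells were not above it either. Of the markers of other cells that were above it, Cdh5 of endothelium and Cd68 of macrophages fell 1.34-fold and 1.45-fold (limma adjusted p = 0.00106 and 0.000655), Ddx4 of germ cells rose by 0.39 on the log2 scale (0.00781), and Sox9, Clu, Prm2 and Acta2 were not called. Of the dim markers, Wt1, Prm1, Ptprc and Tek were called higher, with log2 differences of 0.21, 0.25, 0.20 and 0.21 (limma adjusted p = 0.0477, 0.0145, 0.0434 and 0.0404). The mean log2 signal of the 5 germ cell markers was 6.77 to 6.86 over control arrays and 6.93 to 6.99 over siRNA MEF2 arrays. That of the 5 Sertoli markers was 8.56 to 8.57 and 8.61 to 8.66, and both were higher in siRNA MEF2 without overlap. Of all genes, 22.8% lay higher in siRNA MEF2 without overlap and 9.04% were called higher. The median log2 difference of all genes was 0.04. The groups overlapped for the endothelial markers (7.93 to 7.98 and 7.86 to 7.96), the macrophage markers (6.62 to 6.71 and 6.60 to 6.66), the peritubular and smooth muscle markers (7.26 to 7.31 and 7.25 to 7.33) and the Leydig markers (10.58 to 10.75 and 10.61 to 10.65). Within the Leydig set, Star and Hsd3b1 were called lower (log2 -0.91 and -0.46, limma adjusted p = 0.000284 and 0.0234). Cyp17a1, Lhcgr and Nr5a1 were called higher (log2 0.42, 0.45 and 0.20, limma adjusted p = 0.00669, 0.00389 and 0.0349), and Cyp11a1 was not called. The part of other cells in the results was not tested. Both targets fell: Mef2a read 10.80, 10.80 and 10.78 in control samples, against 9.80, 10.12 and 10.10 in siRNA MEF2 samples, and Mef2d 11.22, 11.31 and 11.22 against 10.60, 10.84 and 10.92. The falls were 1.72-fold and 1.38-fold (limma adjusted p = 8.43e-05 and 0.00205). Nothing in the labels says that the 3 samples of a group came from separate cultures, so the p-values cover only the spread among these samples, possibly a technical one. Of the 42 members 38 lay above the negative control median on every array. The 4 that did not were Lemd1, Nup210, Nup62cl and Pom121l2.

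Among the 42 members every call was a fall, and the falls were small. Of the 42 members 12 fell and 0 rose at an adjusted p under 0.05 (limma, log2 signal, Benjamini-Hochberg over all 22085 genes). At an unadjusted p under 0.05 limma gave 17 lower and 0 higher. Over all genes 11.7% were called lower and 9.04% higher, 2580 and 1997 genes, a split that median centring turned into 3589 and 826, quantile normalization into 1864 and 931 and cyclic loess into 2123 and 972. Calls depended on signal: among the 11042 genes above the median signal 21.9% were called lower and 6.8% higher. All 12 called members were among the 38 members above that median, 31.6% of them. The share of all members called lower was thus 28.6%, nearer to that of bright genes than to that of all genes. The 38 bright members had a median log2 signal of 10.76, against 9.69 over all genes above the median signal. The shares are therefore not matched for signal, and no test set the members apart from other bright genes. The median log2 difference was -0.07 over the members, -0.05 over genes above the median signal and 0.04 over all genes. All 3 siRNA MEF2 samples lay below all 3 control samples for 21 members, or for 18% of all genes and 33.2% of those above the median signal, and above them for 2 members (22.8% of all genes and 14.4% of those above the median signal). The count of 12 depended on scaling and on single arrays. It was 3 after quantile normalization, 6 after cyclic loess and 17 after median centring. Leaving out siRNA control replicate 2 gave 5, leaving out siRNA control replicate 3 gave 4, and leaving out siRNA MEF2 replicate 2 gave 5. Lmna, Nup35 and Seh1l were called lower in all 15 alternatives, among them a refit of a second deposited table with identical values.

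**Figure D1:**
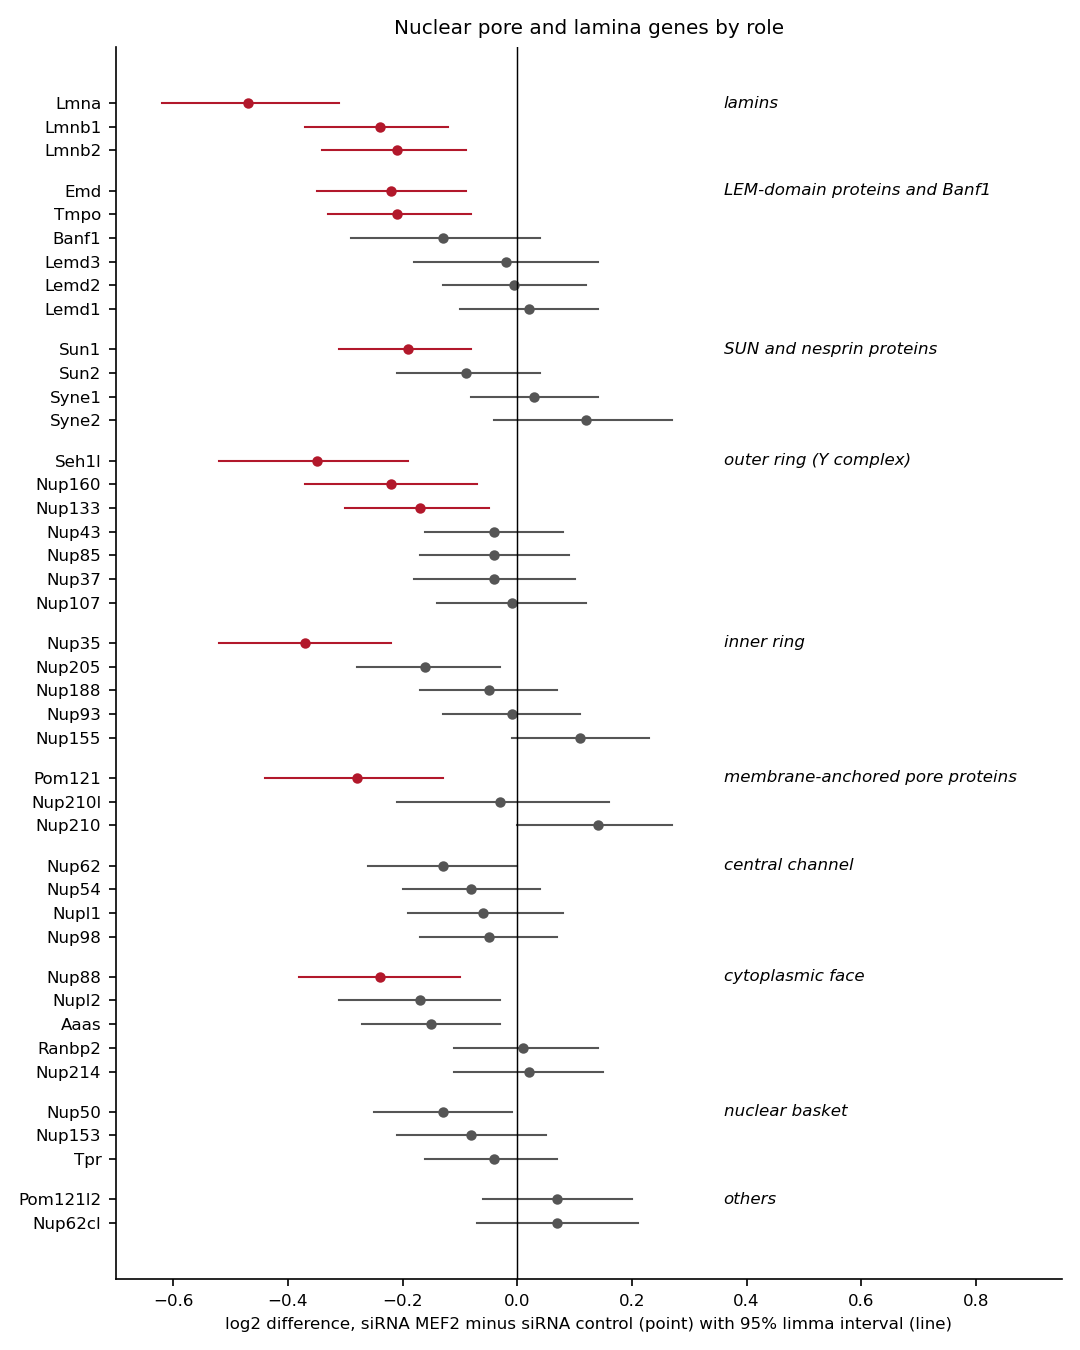
Log2 difference of each of the 42 genes (point) with its 95% limma interval (line), siRNA MEF2 minus siRNA control, grouped by role; red marks an adjusted p under 0.05. All 12 red points lie left of 0, from -0.47 for Lmna to -0.17 for Nup133, and no point lies above 0.14.

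The lamins fell together. Lmna, which encodes lamins A and C, read 9.70, 9.74 and 9.79 in control samples, against 9.42, 9.27 and 9.15 in siRNA MEF2 samples. The groups did not overlap, and the fall was the largest among the 42 genes as fitted. Lmna went from 9.74 ± 0.05 to 9.28 ± 0.14 (SD, n = 3 each), a log2 difference of -0.47 (SE 0.07, limma adjusted p = 0.00102), or 1.38-fold lower. Lmnb1 and Lmnb2 encode the B-type lamins, which stay bound to the membrane through a lipid anchor. Lmnb1 read 10.73, 10.78 and 10.82 in control samples, against 10.55, 10.48 and 10.56 in siRNA MEF2 samples. Its fall was 1.18-fold (log2 -0.24, SE 0.06, limma adjusted p = 0.0112). Lmnb2 read 9.04, 9.06 and 9.02 against 8.91, 8.77 and 8.81, 1.16-fold lower (log2 -0.21, SE 0.06, limma adjusted p = 0.0243). Neither B-type lamin overlapped between groups, yet both calls were lost after quantile normalization (adjusted p = 0.0516 for Lmnb1 and 0.0733 for Lmnb2). Leaving out siRNA control replicate 3 gave 0.0535 and 0.0594, and leaving out siRNA MEF2 replicate 2 gave 0.0506 and 0.0914. Lmnb2 also missed the threshold without siRNA control replicate 1 (0.0623) or 2 (0.0778). After quantile normalization the differences were -0.42 for Lmna, -0.18 for Lmnb1 and -0.19 for Lmnb2.

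The upstream sequences of Lmna and Lmnb2 are shown because both genes fell and a motif search was run on them. Each is the 250 bases before a RefSeq gene start of the mouse assembly GRCm38.p6, 5′ to 3′ on the minus strand. The windows are chr3:88503353-88503602 and chr3:88493313-88493562 for the outer and inner starts of Lmna, and chr10:80918246-80918495 and chr10:80906413-80906662 for those of Lmnb2. Capitals mark matches, on either strand, to the CCAAT box bound by NF-Y, the GC box GGGCGG bound by SP1 and CTA followed after 4 bases by TAG, the outer letters of a MEF2 site.
Lmna outer start: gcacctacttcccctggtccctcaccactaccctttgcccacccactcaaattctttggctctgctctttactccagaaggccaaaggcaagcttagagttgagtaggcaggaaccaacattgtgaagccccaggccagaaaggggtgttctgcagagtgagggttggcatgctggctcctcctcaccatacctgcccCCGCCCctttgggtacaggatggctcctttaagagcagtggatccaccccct
Lmna inner start: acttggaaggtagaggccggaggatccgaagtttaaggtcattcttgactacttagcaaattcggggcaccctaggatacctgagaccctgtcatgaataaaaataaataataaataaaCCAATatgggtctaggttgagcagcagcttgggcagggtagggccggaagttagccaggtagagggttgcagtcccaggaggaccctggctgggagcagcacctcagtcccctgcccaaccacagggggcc
Lmnb2 outer start: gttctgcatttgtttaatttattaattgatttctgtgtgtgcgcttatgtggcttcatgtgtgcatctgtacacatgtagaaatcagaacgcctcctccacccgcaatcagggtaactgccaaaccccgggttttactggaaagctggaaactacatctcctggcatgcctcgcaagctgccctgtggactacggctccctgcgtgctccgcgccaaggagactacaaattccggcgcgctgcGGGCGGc
Lmnb2 inner start: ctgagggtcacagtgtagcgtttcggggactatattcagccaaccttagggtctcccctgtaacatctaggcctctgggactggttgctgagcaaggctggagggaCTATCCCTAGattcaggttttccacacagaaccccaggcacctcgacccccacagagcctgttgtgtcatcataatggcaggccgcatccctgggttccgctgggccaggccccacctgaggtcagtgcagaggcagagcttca

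The outer window of each gene held 1 GC box and that of Lmnb2 also 1 E2F-type match (unmarked), the inner window of Lmna 1 CCAAT box, and the inner window of Lmnb2 the 1 match to the MEF2 letters found in the members' windows. The inner letters of that match were not A and T alone, as they are in known MEF2 sites. RefSeq windows were at hand for 35 of the 42 genes (47 windows), Nup35, Seh1l, Lmnb1, Nup43, Nup85, Nup210l and Lemd2 having none in the table used. The MEF2 letters were in 2.13% of the members' windows and in 3.2% of all 32851. CCAAT was in 46.8% against 33.8%, GGGCGG in 53.2% against 32.7%, the E2F-type letters TTCCCGC or TTGGCGC in 17% against 5.62%, and TTTGAA in 14.9% against 16%. Matches of different motifs overlapped in 1 member window. These are counts of letters in windows and were not tested. The 32851 windows were not matched to the members in signal, and most members were bright. Only the letters CTA and TAG at that spacing were searched for MEF2, and other spellings of the site were not.

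Of the 10 LEM-domain, Banf1, SUN and nesprin genes, Emd, Tmpo and Sun1 fell. Emd, which encodes emerin, an inner membrane protein that binds lamin A, read 10.81, 10.88 and 10.92 in control samples, against 10.68, 10.71 and 10.57 in siRNA MEF2 samples. Its groups did not overlap, and the fall was 1.16-fold (log2 -0.22, SE 0.06, limma adjusted p = 0.0266). Tmpo encodes the LAP2 proteins, which bind lamins and chromatin, and read 11.37, 11.35 and 11.45 against 11.20, 11.20 and 11.14. It was 1.16-fold lower without overlap (log2 -0.21, SE 0.06, limma adjusted p = 0.0244). The other 4 genes of this group, Lemd1 among them, were not called. Banf1, whose small DNA-binding product is the partner of the LEM domain, differed by -0.13 (95% interval -0.29 to 0.04), with siRNA MEF2 replicate 2 alone below the others (12.48, against 12.74 to 12.82 on the other 5 arrays). Lemd2 and Lemd3, which encode integral inner membrane proteins, differed by -0.005 and -0.02. Sun1, an inner membrane protein that reaches across the envelope to nesprins, read 10.89, 10.89 and 10.86 in control samples, against 10.67, 10.69 and 10.71 in siRNA MEF2 samples. The spread within each group was narrow (SD 0.02 in both) and the fall 1.14-fold (log2 -0.19, SE 0.05, limma adjusted p = 0.0258). Sun2 differed by -0.09 (95% interval -0.21 to 0.04), and the nesprin genes Syne1 and Syne2 by 0.03 and 0.12 (intervals -0.08 to 0.14 and -0.04 to 0.27). The 4 probe sets of Syne2 gave differences from -0.02 to 0.12. After quantile normalization or cyclic loess the calls of Emd (adjusted p = 0.126 and 0.0942), Tmpo (0.1 and 0.0884) and Sun1 (0.134 and 0.0991) were lost. Sun1 was also lost when any array but siRNA MEF2 replicate 3 was left out (0.0516 to 0.0768). Emd was lost without siRNA control replicate 2 (0.0775) or 3 (0.102) or siRNA MEF2 replicate 3 (0.0682), and Tmpo without siRNA control replicate 3 (0.105) or siRNA MEF2 replicate 2 (0.0562) or 3 (0.0542).

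**Figure D2:**
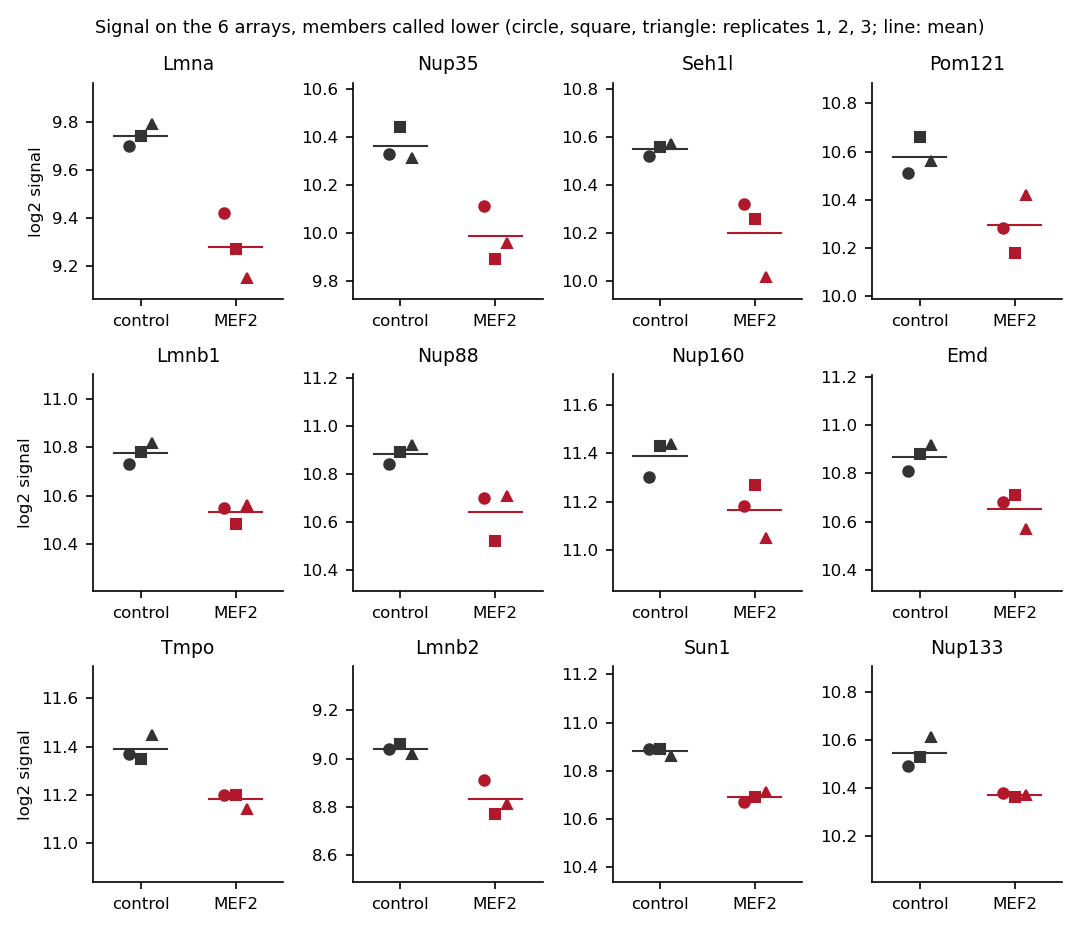
Log2 signal of the 12 genes called lower, 1 panel a gene, for 3 siRNA control samples (black) and 3 siRNA MEF2 samples (red); circle, square and triangle are replicates 1, 2 and 3, the line is the group mean, and every panel spans the same height on the log2 scale. In each panel all red points lie below all black points.

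In the outer ring, the Y-shaped complex that coats the pore scaffold, 3 of 7 genes fell and the others were near 0. Seh1l, whose product also serves the GATOR2 complex of nutrient signalling, read 10.52, 10.56 and 10.57 in control samples, against 10.32, 10.26 and 10.02 in siRNA MEF2 samples. It was lowest on siRNA MEF2 replicate 3 and did not overlap between groups. The fall was 1.28-fold (log2 -0.35, SE 0.08, limma adjusted p = 0.00787). Nup160, a scaffold arm of the complex, read 11.30, 11.43 and 11.44 against 11.18, 11.27 and 11.05 (1.17-fold lower, log2 -0.22, SE 0.07, limma adjusted p = 0.0387). Nup133, its stalk, read 10.49, 10.53 and 10.61 against 10.38, 10.36 and 10.37 (1.13-fold lower, log2 -0.17, SE 0.06, limma adjusted p = 0.0484). Neither overlapped between groups. Nup133 lay closest to the threshold among the called genes, and its call was lost after quantile normalization and cyclic loess (adjusted p = 0.216 and 0.181) and without any 1 array (0.0588 to 0.182). Nup160 was lost after both normalizations (0.138 and 0.122) and without siRNA control replicate 2 (0.116) or 3 (0.123) or siRNA MEF2 replicate 1 (0.0616) or 3 (0.103). Nup107, Nup85, Nup43 and Nup37, of the same complex, differed by -0.01, -0.04, -0.04 and -0.04, and the 95% intervals of all 4 lay within -0.18 to 0.12. The 7 subunits of 1 complex thus had differences from -0.35 to -0.01, and no test compared them with each other.

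In the inner ring 1 of 5 genes fell. Nup35, which binds membrane and the scaffold nucleoporins Nup93 and Nup155, read 10.33, 10.44 and 10.31 in control samples, against 10.11, 9.89 and 9.96 in siRNA MEF2 samples. It fell 1.30-fold without overlap (log2 -0.37, SE 0.07, limma adjusted p = 0.00328). A second probe set listed with the same transcript gave a difference of -0.34, and both may read the same RNA. Nup205, a large scaffold protein, was lower on each siRNA MEF2 array (at most 12.01, against at least 12.10) but missed the threshold (log2 -0.16, limma adjusted p = 0.07). It passed in 4 of 15 alternatives, median centring among them (0.021). Nup155 read 11.42, 11.49 and 11.44 in control samples, against 11.51, 11.59 and 11.56 in siRNA MEF2 samples, all above the controls, and was not called (log2 0.11, 95% interval -0.01 to 0.23, limma adjusted p = 0.181). Nup188 and Nup93, which share the ring, differed by -0.05 and -0.01.

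Pom121, a membrane nucleoporin that takes part in anchoring the pore, read 10.51, 10.66 and 10.56 in control samples, against 10.28, 10.18 and 10.42 in siRNA MEF2 samples. It fell 1.22-fold without overlap (log2 -0.28, SE 0.07, limma adjusted p = 0.0169). The call was lost after quantile normalization (0.0517) and without siRNA control replicate 2 (0.0719) or siRNA MEF2 replicate 2 (0.0756). Ndc1, another membrane anchor of the pore, is named in the selection rule but deposited under its older symbol Tmem48, so the match by symbol left it out of the 42 and their counts. It read 10.57, 10.53 and 10.59 against 10.33, 10.28 and 10.25, 1.21-fold lower (log2 -0.27, SE 0.06, limma adjusted p = 0.00564). Nup210, the third such anchor, lay below the negative control median on every array in both groups and differed by 0.14 (95% interval -0.0004 to 0.27). Nup210l, a paralog of Nup210, had 9 probe sets with differences from -0.20 to 0.14.

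On the cytoplasmic face 1 of 5 genes fell. Nup88, which pairs with Nup214 near the export channel, read 10.84, 10.89 and 10.92 in control samples, against 10.70, 10.52 and 10.71 in siRNA MEF2 samples, 1.18-fold lower without overlap (log2 -0.24, SE 0.06, limma adjusted p = 0.0219). Its call was lost after quantile normalization and cyclic loess (0.0827 and 0.0616) and without siRNA control replicate 2 (0.0634), siRNA control replicate 3 (0.0795) or siRNA MEF2 replicate 2 (0.0883). Its partner Nup214 differed by 0.02 (95% interval -0.11 to 0.15). Ranbp2, the giant filament protein with SUMO ligase activity, read 10.63, 10.66 and 10.63 against 10.71, 10.67 and 10.58, and the groups overlapped (log2 0.01, interval -0.11 to 0.14). Nupl2 and Aaas, the latter mutated in triple A syndrome in humans, differed by -0.17 and -0.15 (limma adjusted p = 0.0805 and 0.0719). Nupl2 passed in 2 alternatives and Aaas in 3, both after median centring (0.0256 and 0.0208).

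No gene of the central channel or the nuclear basket passed as reported, while Nup62 and Nup50 passed after median centring (limma adjusted p = 0.0468 and 0.0384). Nup98, whose precursor yields a mobile channel nucleoporin and a scaffold protein, read 11.68, 11.70 and 11.69 in control samples, against 11.67, 11.65 and 11.60 in siRNA MEF2 samples (log2 -0.05, 95% interval -0.17 to 0.07). Nup62, the core of the channel, read 11.06, 11.09 and 11.12 against 11.05, 10.90 and 10.93 (log2 -0.13, limma adjusted p = 0.134). For both genes each siRNA MEF2 value lay below each control value, by little. The channel partners of Nup62, Nup54 and Nupl1, differed by -0.08 and -0.06. In the basket Nup153 read 11.80, 11.88 and 11.85 against 11.71, 11.84 and 11.73, with overlap (log2 -0.08, interval -0.21 to 0.05). Tpr, the coiled-coil filament of the basket, read 11.01, 11.03 and 11.03 against 10.98, 11.00 and 10.97 (log2 -0.04, interval -0.16 to 0.07). Nup50, which helps release import cargo, differed by -0.13 (limma adjusted p = 0.116). The 95% intervals of the members not called reached down to -0.31 on the log2 scale (Nupl2).

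By compartment, 6 of 29 pore genes (20.7%) and 6 of 13 lamina and envelope genes (46.2%) were called lower. Only 26 and 12 of these genes lay above the median signal, and all calls were among them. Of all genes above that median 21.9% were called lower. The median differences of the pore genes and of the lamina and envelope genes were -0.05 and -0.13. These shares depended on scaling. After quantile normalization the calls left were Lmna of the lamina and envelope genes and Nup35 and Seh1l of the pore genes. After cyclic loess they were the lamins in the first compartment and Nup35, Seh1l and Pom121 in the second. Whether the compartments differ was not tested.

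**Figure D3:**
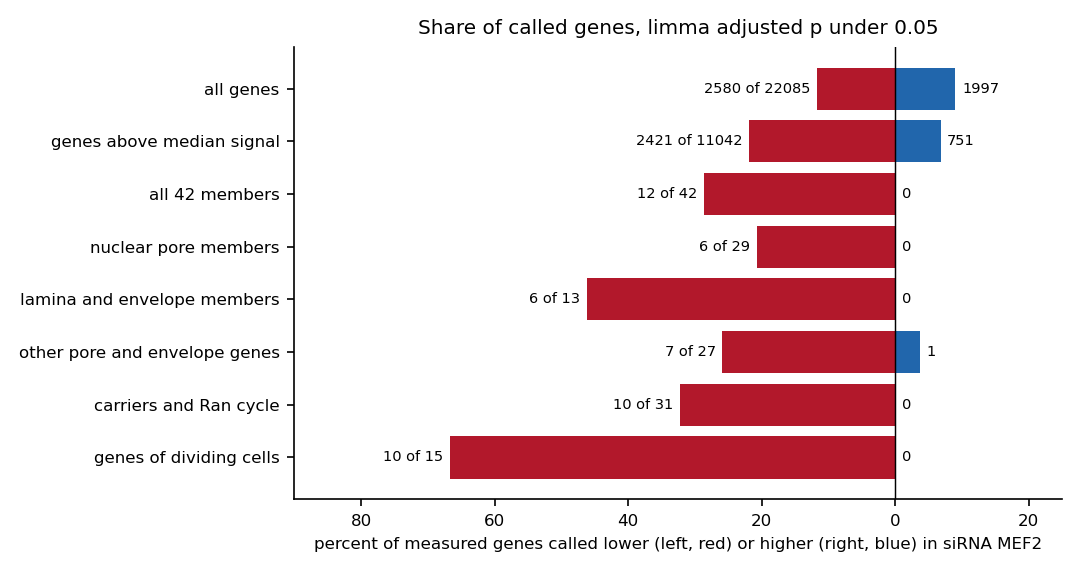
Percent of measured genes called lower (red, left) and higher (blue, right) in siRNA MEF2 at an adjusted p under 0.05, with counts at the bars. The pore genes, dim ones included, reach 20.7% lower, and genes above the median signal 21.9%. The lamina and envelope genes, likewise with dim ones, reach 46.2% and the genes of dividing cells 66.7%. After quantile normalization Lmna alone of the lamina and envelope genes was called. The lists were chosen with earlier results of these data known.

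Of 27 genes that work with the pore and lamina but have other names, 26 lay above the median signal. Above that median 21.9% of all genes were called lower and 6.8% higher. Of the 27, 7 fell and 1 rose (25.9% and 3.7%). The median log2 signal of the 27 was 10.31, against 9.69 over all genes above the median signal. Lbr, the lamin B receptor, an inner membrane protein that binds lamin B and heterochromatin and also reduces sterols, was the one that rose. It read 10.69, 10.69 and 10.62 in control samples, against 11.16, 11.03 and 10.97 in siRNA MEF2 samples, 1.31-fold higher (log2 0.39, SE 0.06, limma adjusted p = 0.00144). After quantile normalization or cyclic loess 2 of the 27 were called higher. Nrm, which encodes the inner membrane protein nurim, read 10.82, 10.85 and 10.71 against 10.34, 10.31 and 10.19, 1.43-fold lower (log2 -0.51, SE 0.06, limma adjusted p = 0.000308). Ddx19a, a close relative of the helicase that strips export proteins from mRNA at the pore, fell 1.40-fold, and Tor1aip2, an activator of the envelope ATPase torsin, 1.37-fold (limma adjusted p = 0.000343 and 0.000504). The groups did not overlap for any of these 4 genes. Ddx19b, a close paralog of Ddx19a, fell 1.17-fold (limma adjusted p = 0.0302), and whether the probe sets tell the pair apart was not tested. Sec13 and Rae1, pore components named otherwise, differed by 0.04 and 0.0008, and Ahctf1, which seeds pores on chromatin, by -0.08. Zmpste24, the protease that matures prelamin A, differed by 0.14 (95% interval -0.01 to 0.28). The count of 7 became 4 when siRNA control replicate 2 was left out, and likewise 4 when siRNA MEF2 replicate 2 was.

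The 31 genes of nuclear transport carriers and the Ran cycle all lay above the median signal. Above that median 21.9% of all genes were called lower and 6.8% higher. Of the 31, 10 fell and 0 rose (32.3%). The median log2 signal of the 31 was 11.27, against 9.69 over all genes above the median signal, so the shares are not matched for signal. At an unadjusted p under 0.05 limma gave 11 lower and 1 higher, and 1 gene was called higher in 5 alternatives, quantile normalization and cyclic loess among them. Kpna3, an importin alpha that carries cargo with classical localization signals, read 11.11, 11.21 and 11.13 in control samples, against 10.63, 10.66 and 10.45 in siRNA MEF2 samples. It fell 1.48-fold (log2 -0.57, SE 0.07, limma adjusted p = 0.00025). Kpna1, a sister importin alpha, read 10.58, 10.58 and 10.55 against 10.09, 10.12 and 10.08, 1.39-fold lower (log2 -0.48, SE 0.05, limma adjusted p = 0.000168). Both fell further than any of the 42 members fell, as fitted, and neither overlapped between groups. Ipo7 and Tnpo2, further import receptors, fell 1.24-fold and 1.23-fold. Kpnb1, the importin beta that docks at the pore, fell 1.15-fold, with means of 11.37 ± 0.05 in control and 11.16 ± 0.03 in siRNA MEF2 samples (SD, n = 3; limma adjusted p = 0.0231), and the exporter Xpo1 1.17-fold (0.0141). Kpnb1 lost its call in 5 of 15 alternatives and Xpo1 in 2, with adjusted p up to 0.0979 and 0.0667. Ran itself differed by -0.09 (95% interval -0.24 to 0.05). The count of 10 was 5 after quantile normalization and 5 without siRNA control replicate 3.

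**Figure D4:**
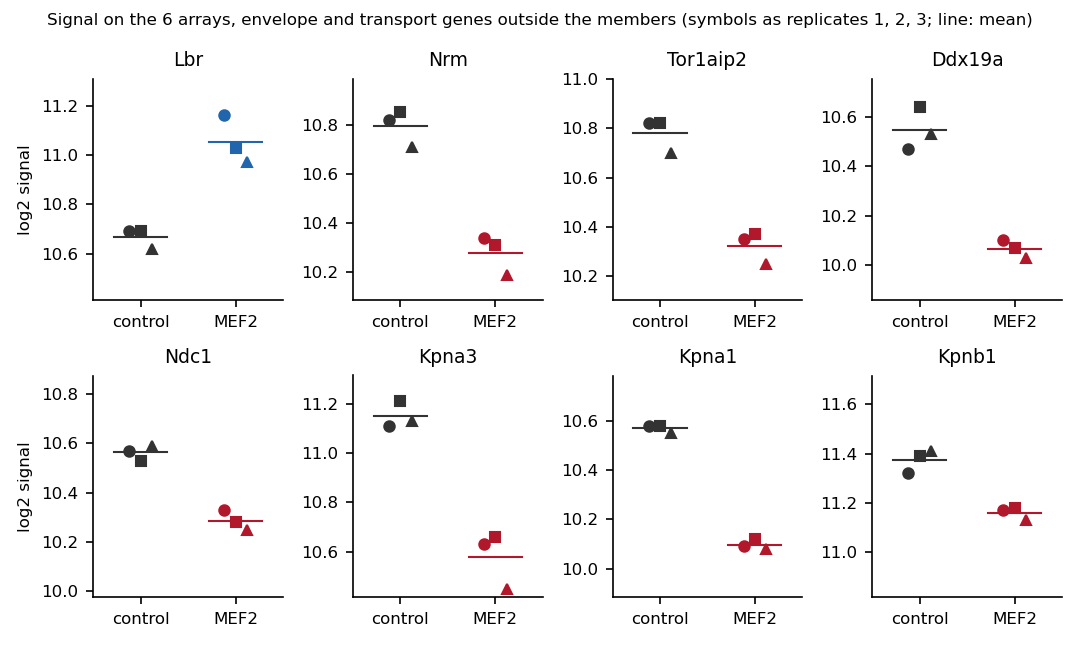
Log2 signal of 8 envelope and transport genes outside the 42, for 3 siRNA control samples (black) and 3 siRNA MEF2 samples (blue for Lbr, called higher, red for genes called lower); symbols are replicates 1, 2 and 3 and lines are means. Lbr moved up by 0.39 and the other 7 down, with differences from -0.57 (Kpna3) to -0.21 (Kpnb1), with no overlap between groups in any panel.

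Genes of dividing cells, a list chosen with earlier results of these data known, fell as well. Of 15 of them 10 fell and 0 rose (limma; 13 lower and 0 higher at an unadjusted p under 0.05), all 15 differences were below 0, and their median was -0.26. Rrm2, a subunit of ribonucleotide reductase, fell 1.37-fold, Ccna2, a cyclin of S phase and mitosis, 1.37-fold, the kinase gene Cdk1 1.31-fold and Top2a, a topoisomerase of dividing cells, 1.30-fold (limma adjusted p from 0.000836 to 0.00107). All 15 genes lay above the median signal, where 21.9% of all genes were called lower and 6.8% higher. The 15 were brighter than that background, with a median log2 signal of 11.57 against 9.69. The count of 10 was 6 without siRNA control replicate 3. Their part in the falls of the lamins, Tmpo and the nucleoporins was not tested. In RNA of whole cultures fewer dividing cells and less RNA per cell cannot be told apart.

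**Figure D5:**
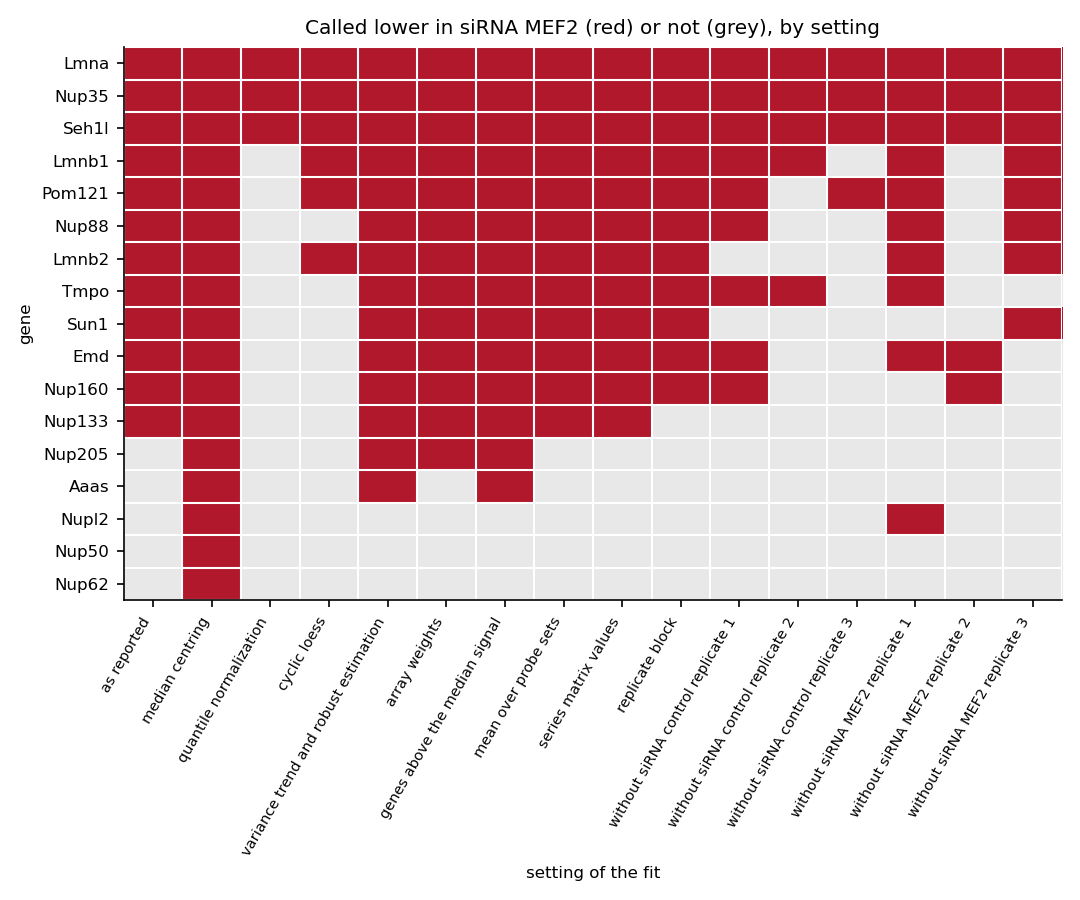
Genes among the 42 called lower in at least 1 setting (rows) by setting of the fit (columns); red is an adjusted p under 0.05 with a negative difference, grey is not. Lmna, Nup35 and Seh1l are red throughout, the column of quantile normalization has 3 red cells and that of median centring 17.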

How the data were processed

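Each deposited value is a log2 signal of 1 probe set on 1 array, summarised by gene with RMA per the file headers. Partek and RMA are named in the submitters' processing notes with no version. RMA puts arrays on 1 scale, so a shift shared by most genes cannot be measured. The annotated table and the series matrix held the same 35557 probe sets (largest difference 0.0). Of these, 25523 were given 1 gene name from the deposited symbols and accessions and a RefSeq table of GRCm38.p6, and covered 22085 genes; coordinates are given only for promoter windows of that RefSeq build. The 42 genes had 55 probe sets, none flagged for cross-hybridisation in the deposited table. Differences were tested with lmFit and eBayes of limma 3.58.1 (R 4.3.3), two-sided, without covariates or a filter on signal, and called at an adjusted p under 0.05; the fit was tested on simulated data. Folds are given where both group means were at least 8. Precision is limited by the number of arrays. Members, lists and motifs were chosen with earlier results of these data known. Every called member and a fixed set of others are given array by array; of each related list a fixed set is named, and up to 4 called genes in order of p. Alternatives covered scaling, variance model, array weights, signal filter, probe sets, the series matrix values, a replicate block and each array left out. Of the deposited rows, 6559 controls, 3473 unnamed and 2 with several symbols were left out.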

Additional observations from a re-analysis of the deposited data

How the results depend on the processing

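Lmna, Nup35 and Seh1l were called lower in all 15 alternatives, and no member was called higher in any of them. The refit of the series matrix used identical values, so its calls could not differ. The mean over probe sets changed the values of only 4 members, those with several probe sets. The 12 members called lower became 3 after quantile normalization and 6 after cyclic loess, and between 4 and 10 with each array left out. The lowest counts came without siRNA control replicate 3 (4), siRNA control replicate 2 (5) and siRNA MEF2 replicate 2 (5). Over all genes the 4577 calls became 2795 after quantile normalization and between 2482 and 4287 with each array left out. These normalizations act on values that were already normalized, and leaving an array out leaves fewer samples; the cause was otherwise not tested. With the replicate number as a block 11 members were called lower, Nup133 being lost (adjusted p = 0.0546), and 5316 genes in all. Same-numbered samples correlated at 0.11, 0.08 and 0.10 in their deviations from the group means and other pairs at -0.09 to -0.01. Every sample correlated best with its own number, a hint from the data and not from the design. Deviations within a group cancel out, so positive values for some pairs push the others down. Whether the samples were paired was not tested.

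Members and related genes that were near 0 and not called changed sign. After median centring these were Lemd1 (-0.03), Nup214 (-0.03), Ranbp2 (-0.04), Syne1 (-0.02), Sec13 (-0.01) and Rae1 (-0.05). After quantile normalization they were Lemd1 (-0.02), Lemd2 (0.06), Lemd3 (0.01), Nup107 (0.03), Nup188 (0.01), Nup37 (0.02), Nup43 (0.02), Nup85 (0.03), Nup93 (0.04), Nupl1 (0.003), Pom121l2 (-0.01) and Tpr (0.02). After cyclic loess they were Lemd1 (-0.03), Lemd2 (0.05), Nup107 (0.03), Nup188 (0.004), Nup37 (0.01), Nup43 (0.01), Nup85 (0.02), Nup93 (0.04), Nupl1 (9e-05), Pom121l2 (-0.02) and Tpr (0.01). Array weights turned Lemd2 (0.003) and Lemd3 (0.01), and the mean over probe sets Ahctf1 (0.03). With each array left out the ranges were -0.04 to 0.04 for Lemd2, -0.09 to 0.03 for Lemd3, -0.05 to 0.03 for Nup107, -0.09 to 0.06 for Nup210l, -0.01 to 0.06 for Nup214, -0.09 to 0.02 for Nup37, -0.02 to 0.01 for Nup93, -0.02 to 0.03 for Rae1 and -0.02 to 0.05 for Ranbp2. Signal over background limits Lemd1, Nup210, Nup62cl and Pom121l2, which were not above the negative controls on every array.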

Other observations

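The genes of this paragraph were named after their values were seen. Lamin-processing genes showed no call: Icmt, Fnta and Fntb, which encode the methyltransferase and the farnesyltransferase subunits that act on lamins, differed by 0.05, -0.04 and -0.10 (limma adjusted p = 0.555, 0.671 and 0.392). Among envelope genes, Syne3, a nesprin of the outer membrane, and Ankle2, which helps rebuild the envelope after mitosis, fell 1.16-fold each (limma adjusted p = 0.0275 and 0.0156), and Senp2, a SUMO protease that docks at the pore, fell 1.20-fold (0.0139).

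Array by array, the 12 called members had median deviations from the control mean of -0.21, -0.28 and -0.24 on siRNA MEF2 replicates 1 to 3 and between -0.04 and 0.04 on the control arrays. For the 30 members not called they were -0.02, -0.04 and -0.03 on the siRNA MEF2 arrays. The members were split by their calls on these same arrays, so this contrast follows from the split and is only a description. Of the 12, 6 were lowest on siRNA MEF2 replicate 2, 5 on replicate 3 and 1 on replicate 1. Mef2a and Mef2d were lowest on replicate 1, and whether the members followed them across arrays was not tested.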
